A study of Mus musculus with 6 samples.

Results

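The 10 genes described here make, break down or sense prostaglandins: the phospholipase Pla2g4a, the cyclooxygenases Ptgs1 and Ptgs2, the terminal synthases Ptges, Ptges2, Ptges3 and Ptgds, the degrading enzyme Hpgd, and the receptors Ptger2 and Ptger4. They were chosen for their role in the pathway, with earlier results of these data known. They were matched by gene symbol to all 55385 genes counted in each library, of which they are 10. The question was how each differed between tumors of control and DMHCA-treated mice, 3 libraries for each group. All mice were female NeuT/ATTAC mice, which carry rat ErbB2[V664E] (NeuT), an activated oncogene driven by the MMTV promoter, and an FKBPv-caspase-8 fusion driven by the FABP4 promoter of fat cells. AP20187, an agent that dimerizes the caspase and so removes part of the mammary fat, was injected at 0.4 mg/kg 3 times per week from 6 weeks of age. DMHCA, a steroid that activates LXR, the nuclear receptor for oxysterols, was mixed into the feed of the treated mice at 0.05% from 8 weeks of age, a dose near 100 mg/kg, and the controls did not receive it. The label of the controls reads AP20187 Vehicle, which can mean AP20187 in its vehicle or the vehicle alone, and the reading of the paper, that both groups were given AP20187, was followed. The labels name the tissue as mammary gland fibrosis and give no background strain, whereas the paper speaks of tumors.

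Prostaglandins are lipids that cells make on demand from arachidonic acid. A phospholipase frees the acid from the membrane, a cyclooxygenase turns it into the unstable intermediate PGH2, and a terminal synthase turns PGH2 into PGE2, PGD2 or another product, which acts on receptors of nearby cells until a transporter and a dehydrogenase remove it. Ptgs2 and Ptges are the inducible enzymes of the PGE2 branch and are known for their part in inflammation and in mammary tumors, in which PGE2 acts on blood vessels, immune cells and the tumor cells themselves.

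The 250 bases before the RefSeq start (GRCm38.p6) of 5 members are printed because Ptgs2, Ptges, Ptger2 and Ptger4 had the lowest values in the DMHCA samples relative to control, and Ptgs1 is the paralog of Ptgs2 with another pattern. All sequences run 5′ to 3′ on the strand of the gene, and capitals mark TTGCGCAA, a palindromic site of the C/EBP type, and GGGCGG or its complement CCGCCC, the GC box. The windows lie at chr2:36230176-36230425 on the plus strand (Ptgs1), chr1:150099781-150100030 on the plus strand (Ptgs2), chr2:30903298-30903547 on the minus strand (Ptges), chr14:44987861-44988110 on the plus strand (Ptger2) and chr15:5244188-5244437 on the minus strand (Ptger4).
Ptgs1: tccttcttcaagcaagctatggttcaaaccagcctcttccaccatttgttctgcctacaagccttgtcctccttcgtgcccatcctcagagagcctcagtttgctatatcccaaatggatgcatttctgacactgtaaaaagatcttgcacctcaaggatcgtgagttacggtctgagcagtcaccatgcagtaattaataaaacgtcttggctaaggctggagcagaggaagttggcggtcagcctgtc
Ptgs2: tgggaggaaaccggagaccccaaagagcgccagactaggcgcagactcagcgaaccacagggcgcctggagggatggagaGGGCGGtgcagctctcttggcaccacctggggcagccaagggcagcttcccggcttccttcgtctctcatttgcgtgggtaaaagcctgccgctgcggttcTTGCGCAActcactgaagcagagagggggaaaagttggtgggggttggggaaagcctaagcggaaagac
Ptges: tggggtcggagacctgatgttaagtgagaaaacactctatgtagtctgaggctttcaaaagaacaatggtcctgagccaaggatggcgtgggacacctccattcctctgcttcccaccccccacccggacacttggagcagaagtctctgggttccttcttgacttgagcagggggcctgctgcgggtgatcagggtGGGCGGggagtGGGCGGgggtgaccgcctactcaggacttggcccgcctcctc
Ptger2: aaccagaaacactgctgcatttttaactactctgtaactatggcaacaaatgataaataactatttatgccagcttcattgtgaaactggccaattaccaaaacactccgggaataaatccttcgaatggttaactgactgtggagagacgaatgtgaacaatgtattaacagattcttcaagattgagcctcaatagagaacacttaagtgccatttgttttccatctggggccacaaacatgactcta
Ptger4: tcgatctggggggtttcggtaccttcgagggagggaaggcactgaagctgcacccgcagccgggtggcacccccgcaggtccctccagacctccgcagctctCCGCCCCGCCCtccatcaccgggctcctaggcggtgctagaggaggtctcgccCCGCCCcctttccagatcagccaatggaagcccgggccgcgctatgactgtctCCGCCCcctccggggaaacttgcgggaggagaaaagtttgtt

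Exact matches were looked for on both strands to TATAAA (the TATA box), to CACGTG (an E-box), to TGACGTCA (a cyclic AMP response element), to TTGCGCAA, to GGGCGG, to the NF-kB motif and to the ideal LXR element, a direct repeat with a spacer. TGACGTCA was in 1.55% of all windows and in none of the members. The Ptgs2 window held 1 TTGCGCAA, 61 to 69 bases before the start, a motif in 0.164% of 32851 promoter windows of the same length, and 1 GC box. The GC box was in 32.7% of all windows, and the Ptges window held 2 matches and the Ptger4 window 4, of which a pair overlap by a base. The Ptgs1 and Ptger2 windows held none of these motifs. Of the members whose sequence is not printed, Ptges2 held CACGTG (6.02% of all windows), Ptges3 and Ptgds the NF-kB motif (7.25%), Ptges3 and Hpgd GGGCGG, and the second of 2 Pla2g4a windows TATAAA (12.4%). The LXR repeat was in 0.0152% of all windows and in no window of a member. These matches describe letters and were not tested as binding sites.

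Libraries held 46358654 to 63420620 expected counts, the estimated number of read pairs from genes. DMHCA libraries 1 and 3 were nearly identical, with a biological coefficient of variation (the spread left after counting error) of 0.0327 between them against 0.376 to 0.579 for the other pairs within a group. They were counted as 1 sample, which leaves 3 control and 2 DMHCA samples. The sources do not say which libraries came from separate tumors beyond the number of mice, so that p-values measure the spread among these 5 samples. Luminal epithelium markers summed to 3248 to 4725 TPM (transcript abundance per length, scaled to the same sum in each library) in every sample. Within that sum Krt19 alone ran from 1.51 TPM in DMHCA 2 to 435 TPM in control 3. Summed fat, lymphocyte, milk and salivary gland markers differed far more between samples than the luminal sum, and their values stand beside the results below. In bulk tissue, fewer cells of a type and less RNA per cell cannot be told apart.

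All 10 members passed the filter on low counts, and 7 of them had a lower mean with DMHCA. The test was edgeR's quasi-likelihood test over 19427 genes, with a gene called at a Benjamini-Hochberg adjusted p under 0.05. No member was called, nor was any other gene (0.0% of genes tested), while 1478 genes had an unadjusted p under 0.05. Ptgs2, Ptges and Ptger4 had an unadjusted p under 0.05 and a lower mean with DMHCA, 3 members of 10, against 4.08% of all genes in that direction, and no member had one with a higher mean, against 3.53%. Ptgs2, Ptges and Ptger4 are also genes that the study named from these same libraries, so that their direction is not independent evidence. The median log2 fold change was -1.02 over the members and -0.03 over all genes tested. None of Ptgs2, Ptges and Ptger4 had an unadjusted p under 0.05 without control 1 or without control 3, where Ptgs1 alone of the members had one. Without control 1 their log2 fold changes were -2.31, -2.37 and -1.99, larger in size than with all 5 samples. Without DMHCA 2, which leaves 1 DMHCA sample, they were -1.94, -1.69 and -1.31. Run on the 6 libraries as if they were separate, DESeq2 called 1 member, Ptgs2, which was lower with DMHCA, as were 2.68% of all genes, and no member in the higher direction, as were 1.29% of all genes. On the 5 samples DESeq2 called no member, against 0.967% of genes lower and 0.249% higher, and gave 4 members and 2370 genes in all an unadjusted p under 0.05.

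**Figure D1:**
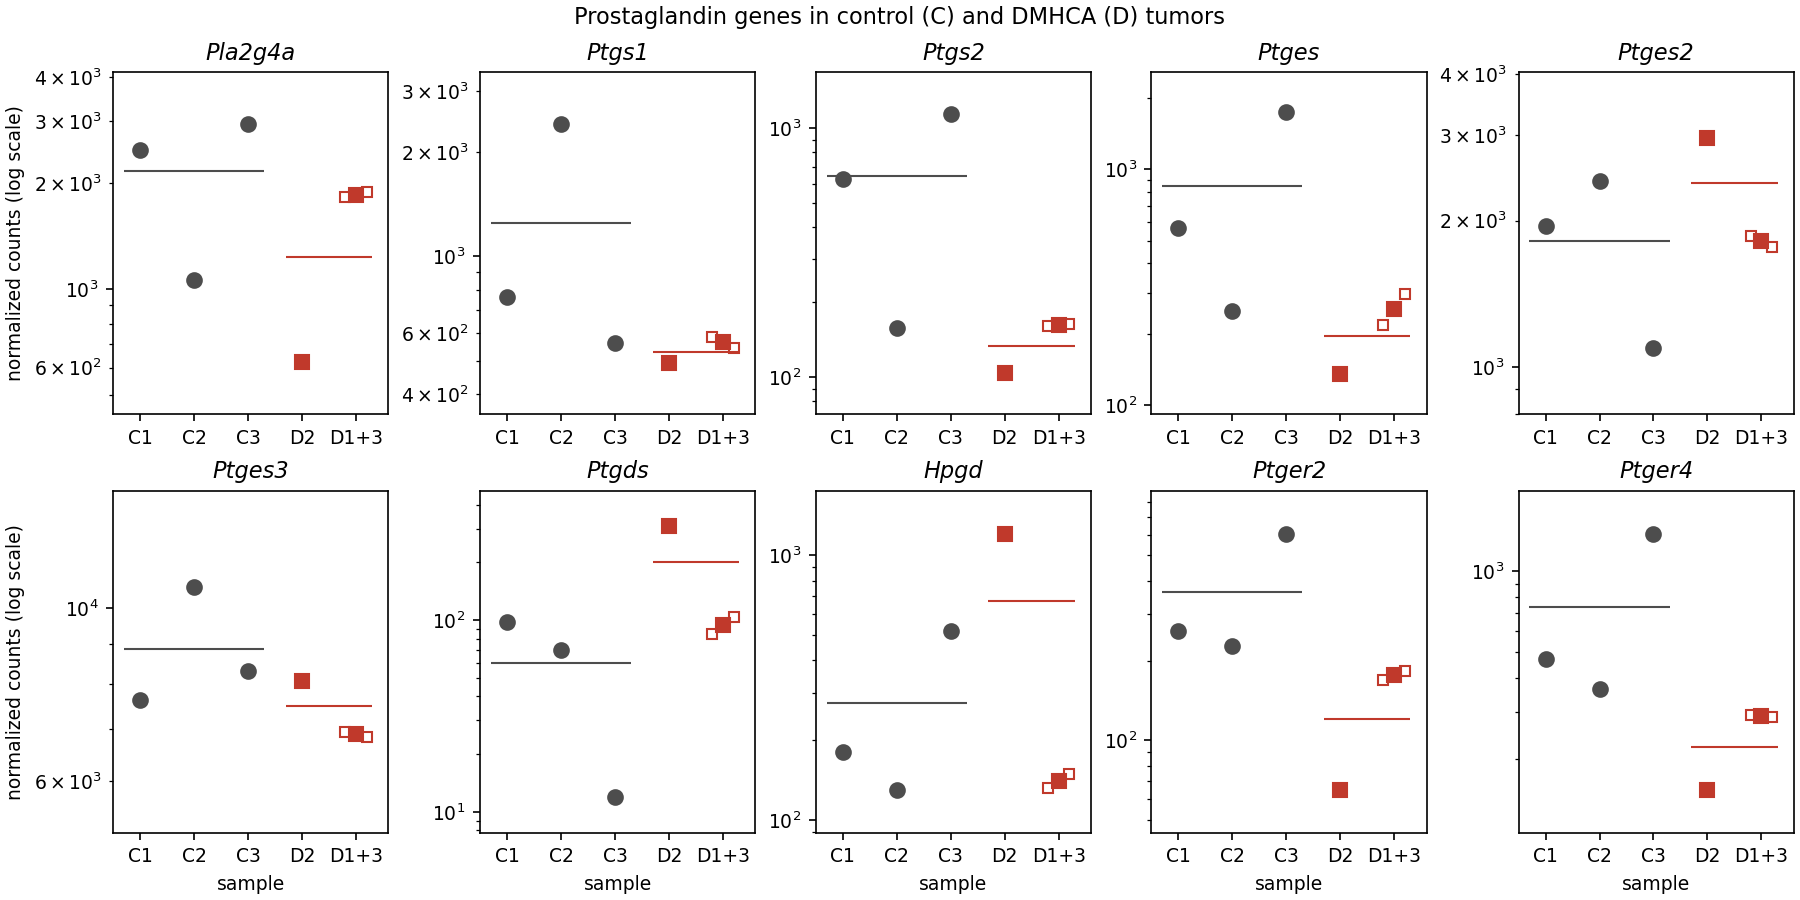
Normalized counts of the 10 genes (vertical log axis, its own scale in each panel) in control samples C1, C2 and C3 (circles), DMHCA sample D2 and the merged sample D1+3 (filled squares), with libraries 1 and 3 alone as open squares and group means as lines. Ptgs2, Ptges, Ptger2 and Ptger4 were highest in control 3 and lowest in DMHCA 2, and the controls overlapped the DMHCA samples in 8 of the 10 panels, Ptger2 and Ptger4 being the exceptions.

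Pla2g4a (ENSMUSG00000056220, chr1:149829618-149961290) encodes the cytosolic phospholipase that frees arachidonic acid. It held 2494, 1061 and 2941 normalized counts in controls 1, 2 and 3, 621 in DMHCA 2 and 1857 in the merged DMHCA 1 and 3. Control 2 lay below the merged sample, so that the groups overlapped. The mean was 2165 ± 982 (SD, n = 3) in controls and 1239 ± 874 (n = 2) with DMHCA, a log2 fold change of -0.80 ± 0.60 (SE; edgeR adjusted p = 0.718). It was -0.18 without DMHCA 2 and 0.23, of the opposite sign, without controls 1 and 3. Pla2g4a, on the minus strand, and Ptgs2, on the plus strand, lie start to start, 138740 bases apart.

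The cyclooxygenases did not share a pattern over the samples. Ptgs1 (ENSMUSG00000047250, chr2:36230426-36252272), the form that most tissues make at a steady level and that platelets depend on, held 764, 2411 and 560 normalized counts in controls 1, 2 and 3, 493 in DMHCA 2 and 565 in the merged sample. One library, control 2, stood far above the rest, and control 3 lay just under the merged DMHCA sample. The means were 1245 ± 1015 and 529 ± 51.1, a log2 fold change of -1.24 ± 0.67 (edgeR adjusted p = 0.653). Without control 2 it was -0.32, and with limma on log2(TPM + 1) it was -0.63. Summed platelet markers were 22.6 TPM in control 2 and 18.2 to 53.7 TPM in the other samples. Their part in the Ptgs1 values was not tested.

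Ptgs2 (ENSMUSG00000032487, chr1:150100031-150108227), the inducible cyclooxygenase that anti-inflammatory drugs of the coxib class inhibit, held 625, 157 and 1146 normalized counts in controls 1, 2 and 3, 104 in DMHCA 2 and 163 in the merged sample. Controls 1 and 3 were high, and control 2 lay between the DMHCA samples. The means were 643 ± 495 and 133 ± 41.3, 4.81-fold lower with DMHCA in the fit, a log2 fold change of -2.27 ± 0.85 with a 95% interval of -4.31 to -0.23 (edgeR unadjusted p = 0.0343, adjusted p = 0.644). Without control 3 the log2 fold change was -1.56, and without controls 1 and 3 it was -0.23. With limma, which averages log values, on log2(TPM + 1) and log2(TPM + 0.1) it was -1.12 and -1.60. The cause of the smaller size was not tested. Only DESeq2 on the 6 libraries, among the fits made, took Ptgs2 past the threshold (adjusted p = 0.0226), and DESeq2 on the 5 samples did not (adjusted p = 0.147). The transcripts Ptgs2os and Ptgs2os2 near Ptgs2 held 18 and 16 counts in all 6 libraries together and were under the filter.

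Ptges (ENSMUSG00000050737, chr2:30889471-30929863) encodes the inducible, membrane-bound PGE2 synthase that works together with Ptgs2. It held 564, 252 and 1748 normalized counts in controls 1, 2 and 3, 136 in DMHCA 2 and 256 in the merged sample. As with Ptgs2, control 3 was highest and control 2 lay between the DMHCA samples. The means were 855 ± 789 and 196 ± 85.5, 4.35-fold lower with DMHCA in the fit, a log2 fold change of -2.12 ± 0.87 with a 95% interval of -4.21 to -0.03 (edgeR unadjusted p = 0.0475, adjusted p = 0.644). It was -1.06 without control 3, -0.36 without controls 1 and 3, and -1.13 and -1.40 with limma on log2(TPM + 1) and log2(TPM + 0.1). The RefSeq start used for its promoter lies inside the longer GENCODE span of the gene, and the mean transcript length that RSEM estimated for Ptges went from 2887 to 3647 bases over the libraries, with the merged libraries 1 and 3 at 3059 and 3270 bases. The length of Ptgs2 was 4453 bases in each library.

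The other PGE2 synthases were more abundant and steadier. Ptges2 (ENSMUSG00000026820, chr2:32395896-32405772), a second membrane-associated synthase, held 1945, 2414 and 1091 normalized counts in controls 1, 2 and 3, 2957 in DMHCA 2 and 1814 in the merged sample. Here control 3 was lowest and DMHCA 2 highest, the reverse of Ptges, and the merged sample lay within the controls. The log2 fold change was 0.39 ± 0.40 (edgeR adjusted p = 0.781), 0.03 without DMHCA 2, 0.13 without control 3 and -0.02 without controls 1 and 3. Ptges3 (ENSMUSG00000071072, chr10:128058954-128077272), known both as the cytosolic synthase and as the HSP90 co-chaperone p23, held 7632, 10649 and 8303 normalized counts in controls 1, 2 and 3, 8077 in DMHCA 2 and 6890 in the merged sample. It was the steadiest member, with a highest sample 1.55 times the lowest against 11.0 times for Ptgs2 and 12.9 times for Ptges. Its log2 fold change was -0.24 ± 0.28, with a 95% interval of -0.91 to 0.42 (edgeR adjusted p = 0.802).

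Ptgds (ENSMUSG00000015090, chr2:25466709-25470046), a PGD2 synthase of the lipocalin family, held 97.2, 70.2 and 11.9 normalized counts in controls 1, 2 and 3, 309 in DMHCA 2 and 93.8 in the merged sample. It had the fewest counts of the members in the controls, DMHCA 2 stood above the other samples, and the merged sample lay between controls 1 and 2. The log2 fold change was 1.75 ± 0.93 (edgeR adjusted p = 0.649) and 0.68 without DMHCA 2. Hpgd (ENSMUSG00000031613, chr8:56294585-56321043), the dehydrogenase that starts the breakdown of PGE2, held 181, 130 and 515 normalized counts in controls 1, 2 and 3, 1201 in DMHCA 2 and 140 in the merged sample. Its higher mean with DMHCA, 670 ± 750 against 275 ± 209, rested on DMHCA 2. The log2 fold change was 1.28 ± 0.95 (edgeR adjusted p = 0.716) and -0.93 without DMHCA 2, and DESeq2 on the 6 libraries gave it no p-value.

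The receptors were the members whose groups did not overlap in normalized counts. Ptger2 (ENSMUSG00000037759, chr14:44988195-45003820) and Ptger4 (ENSMUSG00000039942, chr15:5206661-5244187) encode the PGE2 receptors EP2 and EP4, which raise cyclic AMP. Ptger2 held 258, 228 and 604 normalized counts in controls 1, 2 and 3, 64.7 in DMHCA 2 and 176 in the merged sample. Ptger4 held 473, 364 and 1377 in controls 1, 2 and 3, 154 in DMHCA 2 and 288 in the merged sample. Each control lay above each DMHCA sample for both genes, which also held for 12.2% of all genes in that direction. On the TPM scale the groups overlapped: Ptger2 was 1.33 TPM in control 2 and 1.38 TPM in the merged sample, and Ptger4 was 2.27 and 2.34 TPM.

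Ptger2 had means of 363 ± 209 and 120 ± 78.4 normalized counts, a log2 fold change of -1.59 ± 0.71 (edgeR unadjusted p = 0.0625, adjusted p = 0.644), and Ptger4 of 738 ± 556 and 221 ± 94.9, a log2 fold change of -1.74 ± 0.71 (edgeR unadjusted p = 0.0462, adjusted p = 0.644). Both kept a lower mean with DMHCA in every fit made, with -1.01 for Ptger2 and -0.92 for Ptger4 without control 3, -0.91 and -0.71 without controls 1 and 3, and -0.82 and -1.03 with limma on log2(TPM + 1). Without DMHCA 2 the value of Ptger2 was -1.001. Exons of Ptger4 overlap exons of Ttc33 on the opposite strand, which held 8514 counts in all against 2875 for Ptger4, and exons of Ptger2 overlap Gm17173 and Gm49364 on the opposite strand, which held 147 and 312 against 1481. The sources used here do not say whether strand was used in counting, so the receptor values are uncertain to that extent.

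**Figure D2:**
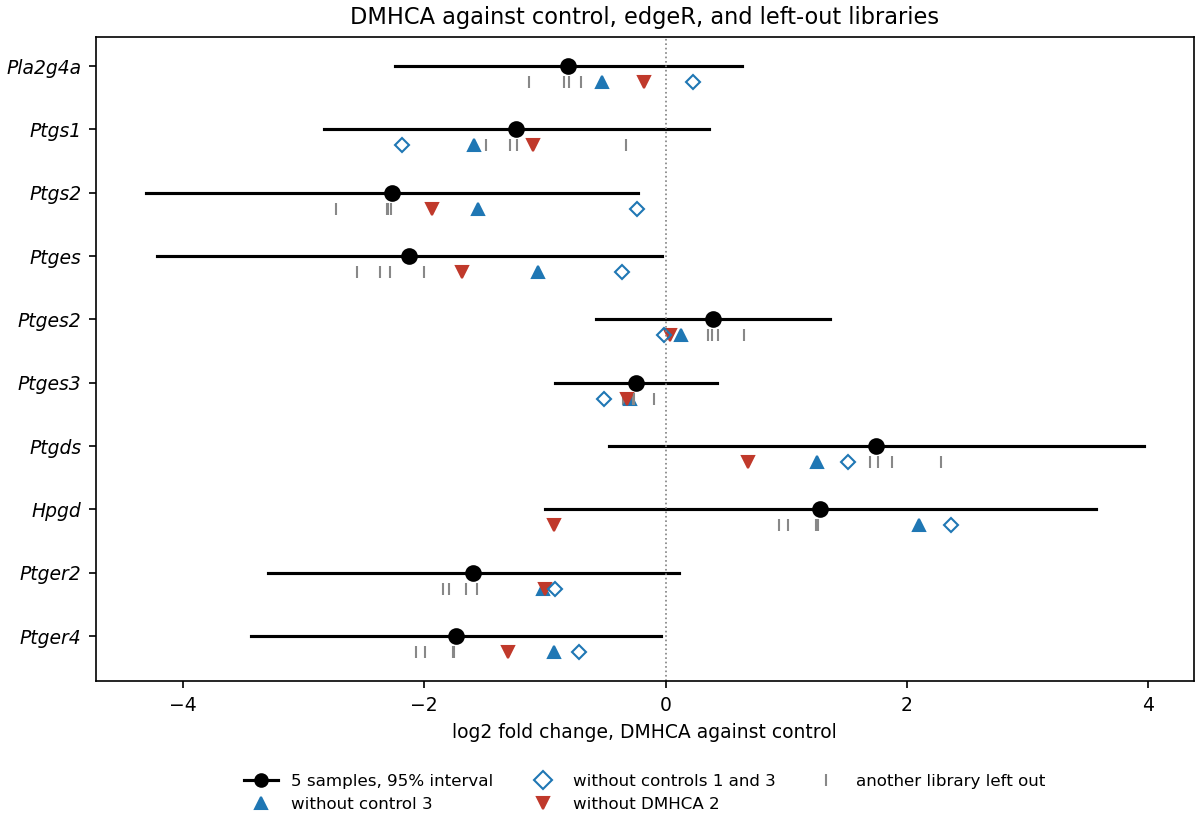
Log2 fold change of each gene, DMHCA against control (horizontal axis), from edgeR on the 5 samples (circles, lines are 95% intervals), with the value after leaving out libraries drawn beneath. The intervals of Ptgs2, Ptges and Ptger4 end just below 0, their values lie nearer to 0 without control 3 and nearest without controls 1 and 3, and Hpgd is below 0 without DMHCA 2.

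Per transcript length, the pathway in controls was led by Ptges3 at 111 ± 2.03 TPM (SD, n = 3), followed by Ptges2 at 26.9 ± 7.77, Pla2g4a at 19.5 ± 10.3, Ptgs1 at 10.9 ± 6.96, Ptges at 6.82 ± 6.78, Ptger4 at 5.65 ± 4.47, Hpgd at 4.36 ± 3.45, Ptgs2 at 3.67 ± 2.89, Ptger2 at 2.65 ± 1.64 and Ptgds at 2.05 ± 1.61. Apart from Ptges3, each gene lay within 1 SD of the next in this order. With DMHCA (n = 2), Ptges3 and Ptges2 still led at 110 ± 19.1 and 40.5 ± 16.9 TPM. Hpgd, at 22.1 TPM in DMHCA 2 and 2.36 TPM in the merged sample, and Pla2g4a, at 6.44 and 17.6 TPM in the same order, came next with means that did not differ beyond their spread. Ptgs2 at 0.82 ± 0.20 and Ptger2 at 0.975 ± 0.573 TPM were the lowest, and their order differed between the DMHCA samples.

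The balance of enzymes within a sample was compared for 4 pairs as log2 ratios of TPM. Ptges to Hpgd, the PGE2 synthase against the enzyme that inactivates PGE2, was 0.43, 0.03 and 0.81 in controls 1, 2 and 3, -3.99 in DMHCA 2 and -0.12 in the merged sample. The groups did not overlap, and the difference of -2.48 had an exact two-sided permutation p of 0.1, the smallest that 10 splits of 5 samples allow, and 0.4 adjusted over the 4 ratios. Without DMHCA 2 the difference was -0.54. Ptgs2 to Ptgs1 was -1.19, -4.72 and 0.27 in controls, -3.10 in DMHCA 2 and -2.64 in the merged sample, so that the inducible enzyme exceeded the constitutive one only in control 3 (difference -0.99, exact permutation p = 0.7). Ptges to Ptges2 differed by -2.01 (exact permutation p = 0.4) and Ptger4 to Ptger2 by 0.04 (exact permutation p = 0.8). Ptger4 exceeded Ptger2 in each sample, by a log2 ratio of 0.76 to 1.28.

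As a measure of likeness, the log2 value of each gene, scaled for library size, was centred over the 5 samples, and the root mean square distance to Ptgs2 or Ptges was taken for 13855 genes with a mean of at least 100 normalized counts. Ptges was the sixth nearest gene to Ptgs2, at a distance of 0.31, after Angpt1 (0.25), which encodes a ligand of the endothelial receptor Tek, A630001G21Rik (0.29), Crabp1 (0.29), Ccdc141 (0.30) and Vmn2r1 (0.31). Among the genes nearest to Ptges were Fas (0.16), a death receptor, Rhoh (0.18), a GTPase of blood cells, Ptn (0.20) and Arhgap45 (0.23). Ptgs2 ranked 30, Ptger4 34, Ptger2 156, Pla2g4a 458 and Ptges3 5086 from Ptges, whereas Ptgs1, Ptges2, Hpgd and Ptgds ranked from 11742 to 13722. Rhoh held 281, 141 and 1234 normalized counts in controls 1, 2 and 3, 86.0 in DMHCA 2 and 136 in the merged sample, the order of samples that Ptges had except for control 2 and the merged sample. These distances are descriptions over 5 samples.

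Several marker lists were also highest in control 3. Summed T cell markers (5 genes) were 15.7, 1.35 and 143 TPM in controls 1, 2 and 3, 3.93 in DMHCA 2 and 7.25 in the merged sample, and B cell markers (5 genes) were 33.8, 0.96, 286, 2.24 and 2.06 TPM in the same order. Adipocyte markers (5 genes) were 127, 20.1, 437, 12.3 and 3.99 TPM, and milk protein genes (5 genes) 2295, 42.8, 33092, 55.8 and 352 TPM. Each of these lists was lower in control 2 than in controls 1 and 3, as Ptgs2, Ptges, Ptger2 and Ptger4 were. So were the macrophage, fibroblast, neutrophil, mast cell, platelet, endothelium and basal epithelium lists.

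In normalized counts all 5 adipocyte markers lay lower in each DMHCA sample than in each control, while in TPM Plin1 was 0.69 in control 2 and 0.70 in DMHCA 2, and no list had a marker at 0 in every sample. Salivary gland markers (4 genes) were 8137 TPM in control 1 and 13.2 to 118 TPM elsewhere. Macrophage markers (7 genes), a cell type that makes PGE2, were 1175, 938 and 2058 TPM in controls and 860 and 1063 TPM with DMHCA, with Lyz2 at 1335 of the 2058 TPM in control 3 and at 352 to 558 TPM in the other samples. Fibroblast markers (6 genes) were 779, 328 and 1288 TPM in controls and 670 and 647 TPM with DMHCA, but not every member was highest in control 3: Dcn was 521 TPM there and 46.2 to 119 TPM elsewhere, while Col1a1 was 96.4 TPM there against 162 TPM in control 1 and 161 TPM in DMHCA 2. Mast cell markers (6 genes) were 6.87 TPM in DMHCA 2 and 16.8 to 43.0 TPM in the other samples. Skeletal muscle markers (5 genes) were 189 TPM in DMHCA 2 and 477 to 802 TPM in the others, highest in control 2. Neutrophil markers (6 genes) summed to 215 TPM in DMHCA 2 and 11.5 to 55.5 TPM in the others, but S100a8 alone made 199 TPM of the sum in DMHCA 2. S100a9 was 12.9 TPM in DMHCA 2 and 3.845 TPM in the merged sample, against 14.2 to 24.3 TPM in controls. Ly6g was at most 0.14 TPM in any sample. Endothelium (5 genes) ran from 29.7 to 57.6 TPM over the samples. Basal epithelium (5 genes) was 58.9, 31.4 and 111 TPM in controls 1, 2 and 3, 45.7 in DMHCA 2 and 57.4 in the merged sample. All 5 basal markers were highest in control 3. The part of these cell types in the member values was not tested. With controls 1 and 3 left out, a choice made after seeing these values, the control arm is 1 library, and the log2 fold changes given above for that setting are values without a test.

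**Figure D3:**
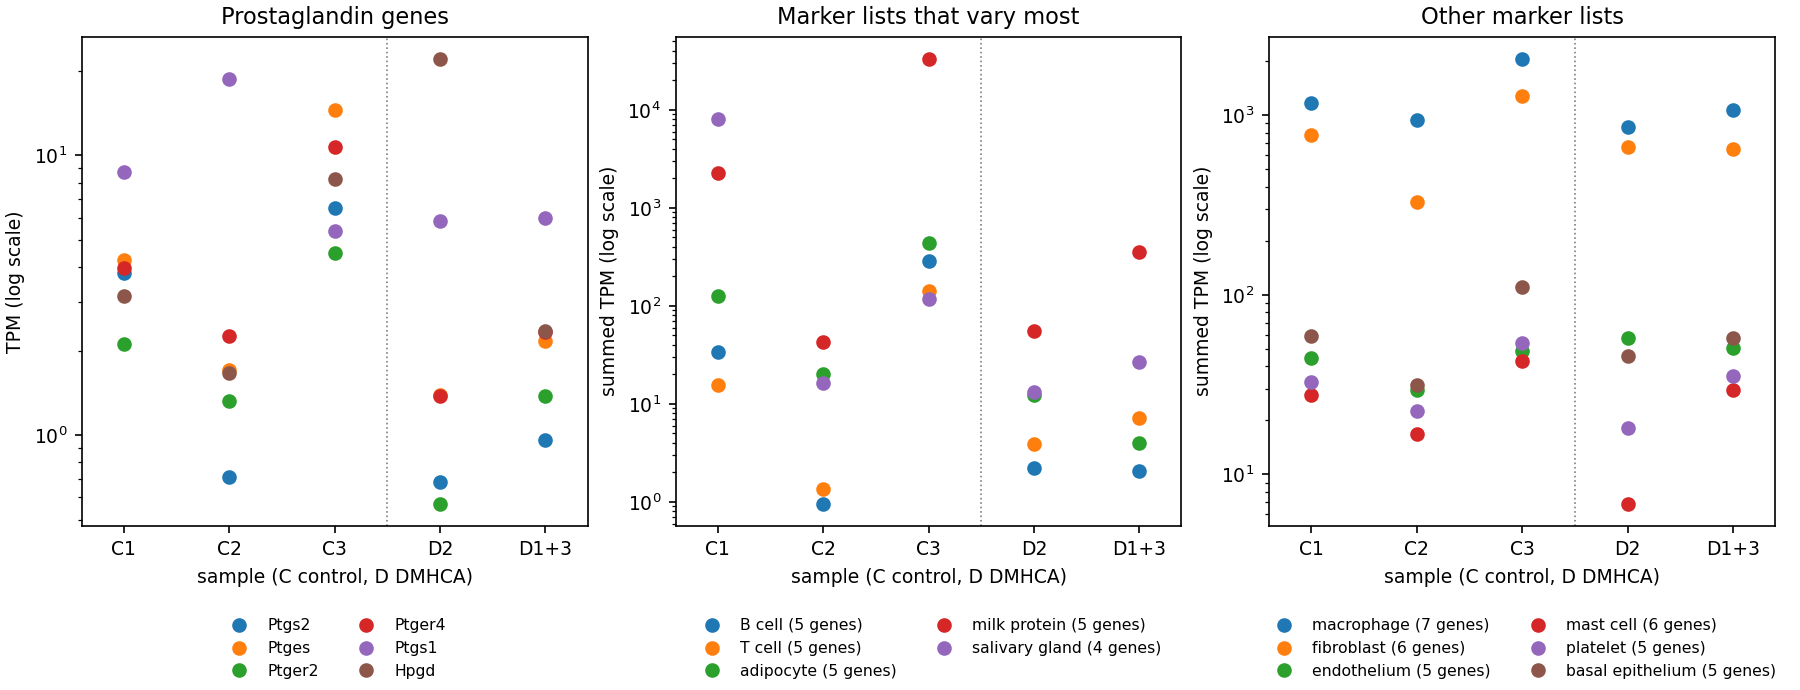
TPM of 6 of the genes (left) and summed TPM of cell type marker lists (middle and right), all on vertical log axes, in control samples C1, C2 and C3 and DMHCA samples D2 and D1+3. Lymphocyte, adipocyte and milk protein lists are high in controls 1 and 3 and low in control 2, the samples in which Ptgs2, Ptges, Ptger2 and Ptger4 are high and low. Each list in the right panel is also lower in control 2 than in controls 1 and 3.

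Beyond the 10 members, 40 symbols of the prostanoid pathway were looked up, of which 38 were found and 30 passed the filter. Among these 30, 15 had a log2 fold change above 0 and 15 below, with a median of -0.06, and none had an adjusted p under 0.05 by edgeR. By role the medians were 0.16 for 9 phospholipases, -0.17 for 8 synthases and reductases, 0.01 for 7 genes of degradation and transport and 0.02 for 6 receptors. The genes under the filter were Pla2g2a (0 counts), Pla2g2e, Pla2g2f, Pla2g4d, Pla2g5, Pla2g10 and the PGD2 receptors Ptgdr and Ptgdr2, which held at most 25 counts each in all 6 libraries.

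Of the other phospholipases, Pla2g2d, a secreted form of lymphoid tissue, held 162, 28.4 and 1043 normalized counts in controls 1, 2 and 3, 9.11 in DMHCA 2 and 43.2 in the merged sample. In the controls it had the order of samples of the B cell markers, which many other marker lists shared. The groups overlapped, with a log2 fold change of -3.95 ± 1.63 (edgeR unadjusted p = 0.0478, adjusted p = 0.644). DESeq2 gave it an adjusted p of 0.0105 on the 6 libraries and 0.0740 on the 5 samples. Pla2g4c had a log2 fold change of 0.77 ± 0.78. Akr1c18, a reductase of prostaglandins and steroids, held 35.6, 10.4 and 42.2 normalized counts in controls and 9.11 and 10.0 with DMHCA (log2 fold change -1.60 ± 0.78, edgeR unadjusted p = 0.0817). These did not overlap, as for 12.2% of all genes in that direction. In TPM the groups overlapped, at 0.20 in control 2 and 0.25 in each DMHCA sample.

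In the pathway of breakdown, Ptgr1, a reductase that acts on the product of Hpgd and on leukotriene B4, was the gene with a higher mean and an unadjusted p under 0.05. It held 1131, 1356 and 1213 normalized counts in controls 1, 2 and 3, 2324 in DMHCA 2 and 1714 in the merged sample. Both DMHCA samples lay above all controls, as did those of 13.8% of all genes, and the log2 fold change was 0.71 ± 0.27 (edgeR unadjusted p = 0.0352). The related reductases Ptgr2 and Zadh2 had log2 fold changes of -0.28 ± 0.23 and 0.35 ± 0.28, and Cyp4f18 one of -0.78 ± 0.63. Ptgr2 lay lower in both DMHCA samples than in any control in normalized counts, as did 12.2% of all genes, but not in TPM. The uptake transporter Slco2a1 was the most abundant gene of this list, at 59.0 ± 22.0 TPM in controls and 70.1 ± 34.4 TPM with DMHCA (log2 fold change 0.02).

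Among the other receptors, Ptger3, which lowers cyclic AMP, had a log2 fold change of -0.69 ± 0.72 and Ptger1 one of 0.38 ± 0.51, both with overlapping groups. The PGF2α receptor Ptgfr held 502, 1758 and 107 normalized counts in controls 1, 2 and 3, 1698 in DMHCA 2 and 75.8 in the merged sample, an order that did not follow the groups. Ptgfrn, a regulator of that receptor, held 5462, 4494 and 3463 in controls, 8751 in DMHCA 2 and 3805 in the merged sample (log2 fold change 0.49 ± 0.41). 

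The leukotriene branch uses the same arachidonic acid. Of its 16 genes, 14 passed the filter, 4 with a log2 fold change above 0 and 10 below, with a median of -0.48, and none had an unadjusted p under 0.05. Over all genes tested, 9328 lay above 0 and 10099 below. Alox12b held 0 counts and Ltb4r2 28 in all 6 libraries. Alox5, the first enzyme of leukotriene synthesis, held 87.6, 108 and 90.8 normalized counts in controls 1, 2 and 3, 131 in DMHCA 2 and 175 in the merged sample. Its groups did not overlap, as for 13.8% of all genes in that direction, and the log2 fold change was 0.68 ± 0.47 (edgeR unadjusted p = 0.196). In normalized counts Ltc4s, the leukotriene C4 synthase, and Ggt5, which converts leukotriene C4 to D4, lay lower in both DMHCA samples than in any control. So did 12.2% of all genes. Their log2 fold changes were -0.92 ± 0.62 and -2.02 ± 0.91 (edgeR unadjusted p = 0.180 and 0.0655). In TPM the groups overlapped: Ltc4s was 4.26 in control 2 and 5.195 in the merged sample, and Ggt5 was 2.02 and 2.315. Ggt5 held 409, 286 and 1985 normalized counts in controls 1, 2 and 3 and 175 and 265 with DMHCA, again highest in control 3. Alox12e (-3.21), Dpep2 (-1.21) and Cysltr2 (-1.14) had negative, and Aloxe3 (0.47), Lta4h (0.14) and Cysltr1 (0.04) positive log2 fold changes, with overlapping groups for all 6.

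**Figure D4:**
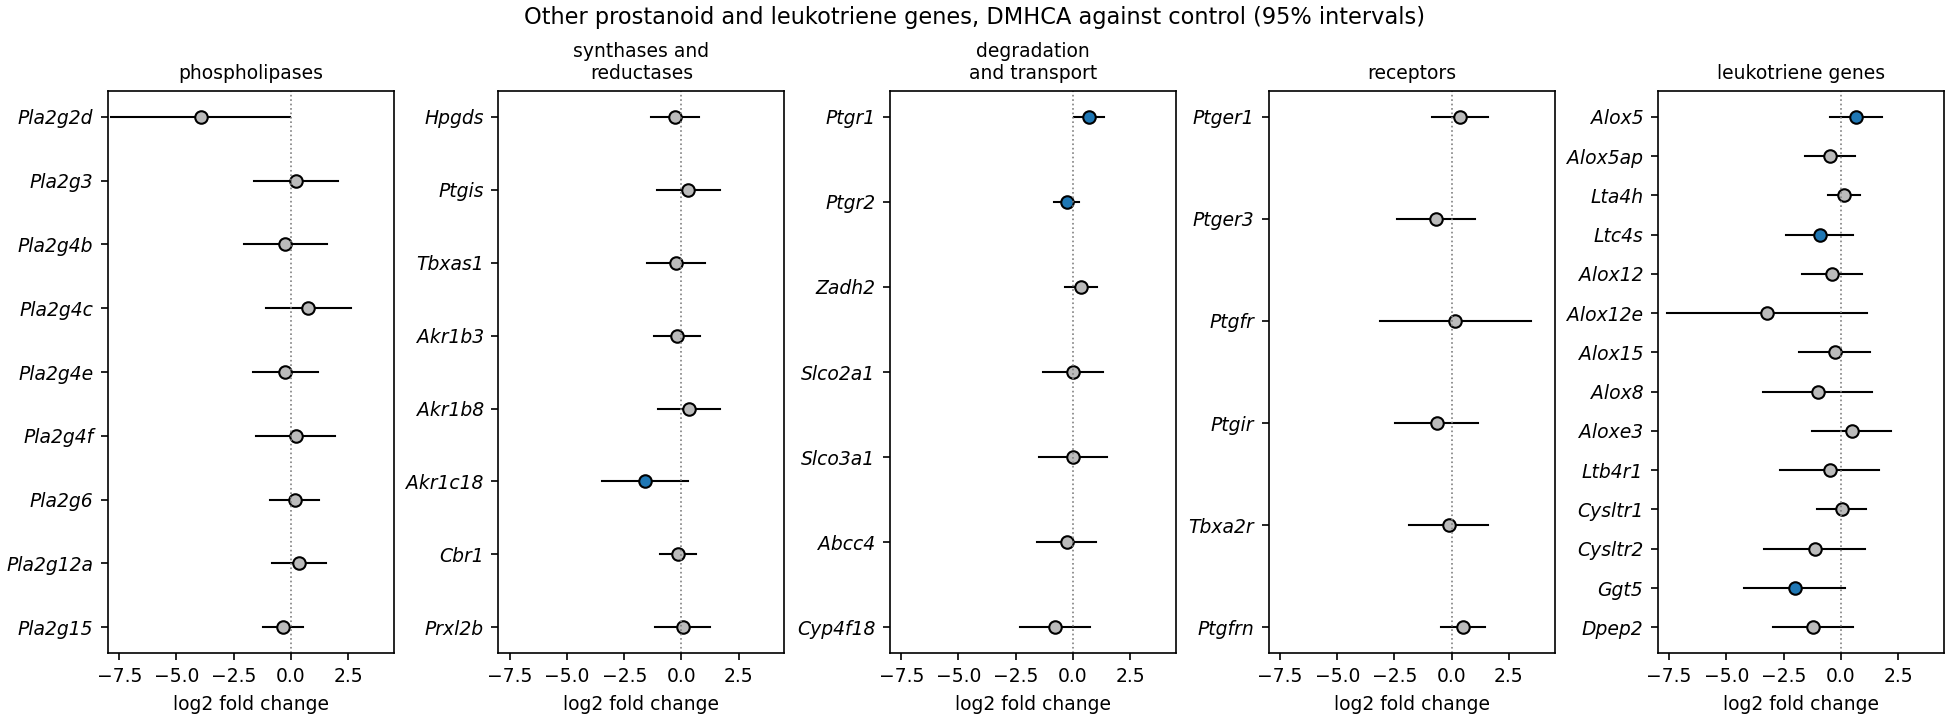
Log2 fold change, DMHCA against control (horizontal axis), with 95% intervals, of the 30 other prostanoid genes by role and of the 14 leukotriene genes that passed the filter. Blue points mark genes whose groups did not overlap in normalized counts. The intervals of Pla2g2d and Ptgr1 alone end on 1 side of 0.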

How the data were processed

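Tumor RNA of 3 control mice and 3 mice given DMHCA was sequenced, and 1 table per library was used. Per the paper and the submitters' processing notes, the authors checked reads with FastQC 0.11.9, trimmed adapters with cutadapt 2.9, and aligned paired reads to mouse mm10 (GRCm38) and counted them on Ensembl genes with RSEM 1.3.1 and Bowtie2 2.4.1. The deposited expected counts are not normalized, and 19.6% to 23.5% of the values of all 55385 genes per library, zeros included, were not exactly whole, since RSEM divides reads between similar genes. The deposited TPM values were divided by transcript length and scaled by the authors to a common library sum. The deposited FPKM values were not used. The strand setting is not given in the sources used here.

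Counts were rounded to whole numbers, and libraries 1 and 3 of the DMHCA group, whose coefficient of variation was under 0.1 and over 5 times below that of other pairs, were summed. The comparison used edgeR 4.0.16 (R 4.3.3) with TMM, filterByExpr at a minimum count of 10 and a total of 15, and its quasi-likelihood test, with p-values adjusted over all genes tested by the method of Benjamini and Hochberg. Normalized counts are TMM-scaled, and standard errors are the log2 fold change over the square root of F. The members, the lists and the rule for merging were chosen with earlier results of these data known. The genes named are the 10 members, the 5 genes of each list with the smallest p in each direction, genes at 0 or under the filter, and the 5 nearest to Ptgs2 and to Ptges, of which 1 is not reported here. Slco2a1, Ptgfr and Ttc33 with the other overlapping genes were named after their values were seen. Ratios were compared by exact permutation tests over every split of the samples, in Python 3.11.15 with numpy 2.4.6. Alternatives were DESeq2 1.42.0, limma 3.58.1 on log2 TPM, other filters, the 6 libraries as separate samples with and without a replicate block, libraries left out in turn and, chosen after seeing the data, without controls 1 and 3. The fit was tested on simulated data. Gene coordinates are those of GENCODE M21 and promoters those of RefSeq, which held all 10 members.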

Additional observations from a re-analysis of the deposited data

How the results depend on the processing

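Over all members and alternatives, 175 of 179 fold changes had the same direction and the same side of the adjusted threshold as with edgeR on the 5 samples. The exceptions were Ptgs2, past the threshold with DESeq2 on the 6 libraries, Hpgd, which went from -0.93 (without DMHCA 2) to 2.10 (without control 3) on the log2 scale with a library left out, and Ptges2 (-0.016) and Pla2g4a (0.23) without controls 1 and 3. The number of members with an unadjusted p under 0.05, 3 with edgeR on the 5 samples, was 5 with the replicate block, 5 with DESeq2 on the 6 libraries, 6 with no filter on low counts, 1 with at least 100 counts in 2 samples, 0 with each of the limma fits of log2 TPM, and 0 to 3 with a library left out in turn, where the 1 member without control 3 was Ptgs1. Over all genes that number was 1478 with edgeR on the 5 samples, 3207 with the block, 3652 with DESeq2 on the 6 libraries, 2808 with no filter and 1004 with at least 100 counts. The limma fits gave 1344, 1366 and 1847 genes, and leaving out a library other than DMHCA 2 gave 1024 to 1800. Over all genes, where edgeR called 0, DESeq2 called 244 on the 5 samples and 846 on the 6 libraries, and edgeR called 16 with no filter, while 0 were called with any library left out. With a library left out in turn, the difference in log2 ratio went from -2.41 to 0.085 for Ptgs2 to Ptgs1 (0.085 without control 3), from -2.83 to -0.94 for Ptges to Ptges2, from -2.68 to -0.54 for Ptges to Hpgd, and from -0.22 to 0.18 for Ptger4 to Ptger2 (-0.06 without control 2 and -0.22 without DMHCA 2). The cause was not tested. Same-numbered control and DMHCA libraries had deviations that correlated at -0.05, 0.32 and 0.33, and DMHCA 1 correlated best with control 3, so the numbers were not read as pairs. With the replicate block, edgeR called 0 genes at an adjusted p under 0.05, against 3207 at an unadjusted p under 0.05. Without DMHCA 2 the DMHCA group is 1 sample, whose spread was taken to be like that of the controls, and without controls 1 and 3 the control group is 1 library, so that no p is used there. Each member held at least 678 counts in the 6 libraries together, and the exact tests of 3 against 2 samples could not go below 0.1.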
